A study of Mus musculus with 4 samples.

Results

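The midbrain patterning transcription factors described here are 9 genes taken by name, En1, En2, Gata2, Gata3, Otx2, Foxa1, Foxa2, Sox14 and Pax7, by a rule that uses no measured value, although the set was proposed with earlier results of these data known. By gene symbol and Entrez identifier, 7 of the 9 had a row among the 12700 genes of the count table, while Foxa1 and Foxa2 had no row in it and get no level below. The counts come from brains of the C57BL/6 Ids-ko mouse, a model of mucopolysaccharidosis type II (Hunter syndrome), and of wild type (wt) mice that were littermates, all aged 9 months. Ids encodes iduronate 2-sulfatase, a lysosomal enzyme that removes sulfate from heparan and dermatan sulfate. The 4 libraries are labelled CxH (cerebral cortex, genotype Ids-/-), CxWT (cerebral cortex, wild type), MH (midbrain, diencephalon and hippocampus, genotype Ids-/-) and MWT (the same area, wild type). In the study's dissection Cx was neocortex, and the diencephalon of M took in hypothalamus, thalamus and striatum. Each library was made from pooled RNA of 7 mice, both areas came from the same brains, and all the libraries were sequenced in a single run, so each condition has 1 library and no replicate.

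These genes lay out the midbrain in the embryo, and several stay on in adult neurons. Otx2, a homeobox factor of forebrain and midbrain, meets the hindbrain factor Gbx2 at the isthmus, the boundary from which the isthmic organizer signals through Fgf8 and Wnt1. The engrailed homeobox factors En1 and En2 are switched on around that boundary and are later needed by dopaminergic neurons, and the forkhead factors Foxa1 and Foxa2 act in the floor plate from which those neurons arise. Gata2 and Gata3, zinc finger factors, direct GABAergic fate in the midbrain, and both also act in serotonergic neurons of the raphe. Sox14, an HMG box factor, marks GABAergic neurons of midbrain and thalamus, and Pax7, a paired box factor, marks the dorsal midbrain that forms the superior colliculus. In adult neocortex En1, Gata3, Pax7 and Sox14 are known to be low or absent.

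On the NCBI37/mm9 assembly, the build of the counts, En1 lies at chr1:122498995-122505873 on the plus strand and En2 at chr5:28492236-28500152 on the plus strand. Gata2 lies at chr6:88143885-88157024 on the plus strand and Gata3 at chr2:9778705-9811661 on the minus strand. Otx2 lies at chr14:49277354-49287319, Sox14 at chr9:99774644-99776663 and Pax7 at chr4:139292977-139389445, all on the minus strand. The missing pair lies at chr12:58641618-58647108 for Foxa1 and at chr2:147868613-147872705 for Foxa2, both on the minus strand.

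Since 6 of the 7 measured genes moved together between libraries, the sequence before their starts is shown for En1, Gata3 and Sox14, which with Pax7 had the largest ratios of the 7, for Otx2 with a smaller ratio and for Gata2, which was not called between the paired libraries. The sequences are those of RefSeq on GRCm38.p6, whose table matched 6 of the 7 by symbol; En2 has no entry. The windows are the 250 bases before a start. Where a window held bases of an exon of the gene in the GENCODE vM1 annotation, its whole part inside the gene was cut off. The Pax7 window lies wholly in an annotated untranslated exon and is not shown. Capitals mark the CpG dinucleotides in the first 4 and the motif matches in Otx2. The stretches are chr1:120602237-120602417 (plus strand, En1), chr2:9878601-9878850 (minus, Gata3), chr9:99876245-99876420 (minus, Sox14), chr6:88193641-88193890 (plus, Gata2) and chr14:48667645-48667894 (minus, Otx2), each written 5′ to 3′ along the gene.
En1: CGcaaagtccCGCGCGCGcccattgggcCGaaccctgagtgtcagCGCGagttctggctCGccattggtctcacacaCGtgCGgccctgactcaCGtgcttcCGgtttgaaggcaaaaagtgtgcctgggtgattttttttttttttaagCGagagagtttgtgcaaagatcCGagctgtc
Gata3: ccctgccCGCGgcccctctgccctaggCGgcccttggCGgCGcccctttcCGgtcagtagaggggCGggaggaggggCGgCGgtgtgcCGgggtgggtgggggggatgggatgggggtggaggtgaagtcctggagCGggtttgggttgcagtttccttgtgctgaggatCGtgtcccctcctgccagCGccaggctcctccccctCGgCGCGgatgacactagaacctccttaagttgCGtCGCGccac
Sox14: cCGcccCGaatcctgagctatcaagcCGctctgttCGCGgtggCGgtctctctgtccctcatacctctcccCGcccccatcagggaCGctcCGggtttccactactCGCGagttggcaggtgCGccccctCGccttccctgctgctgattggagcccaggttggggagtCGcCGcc
Gata2: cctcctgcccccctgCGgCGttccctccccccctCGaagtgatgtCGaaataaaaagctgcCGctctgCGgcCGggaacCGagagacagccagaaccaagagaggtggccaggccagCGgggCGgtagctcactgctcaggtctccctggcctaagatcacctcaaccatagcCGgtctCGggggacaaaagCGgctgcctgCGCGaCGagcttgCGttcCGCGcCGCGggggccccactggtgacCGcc
Otx2: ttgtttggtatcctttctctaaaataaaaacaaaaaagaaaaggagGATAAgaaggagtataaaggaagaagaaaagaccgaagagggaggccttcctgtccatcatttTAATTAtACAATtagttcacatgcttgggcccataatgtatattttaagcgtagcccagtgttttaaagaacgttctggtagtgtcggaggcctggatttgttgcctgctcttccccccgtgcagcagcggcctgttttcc

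In the GENCODE vM1 annotation the stretches of En1, Sox14, Otx2 and Gata2 lie outside the gene. The Gata3 stretch lies in an intron of a longer Gata3 transcript and inside an exon of Gm13256, a non-coding transcript, and whether strand was used in counting is not given in the sources used here. The whole 250-base windows of En1 and Gata3 held 19 CpG each, that of Sox14 held 23, that of Pax7 13 and those of the 2 Gata2 starts 22 and 24, against a median of 6 over 32851 RefSeq starts. Among all starts, 31.5% had 13 CpG or more. The 4 Otx2 windows held 6, 8, 14 and 9 CpG, so that starts of these genes differed in CpG content. Motifs were searched on both strands as GATAA (GATA factors, in 22.6% of all starts), TAATTA (homeobox factors, 4.84%), GGATTA (Otx factors, 6.25%), TGTTTAC (forkhead factors, 3.17%) and ACAAT (Sox factors, 27.7%). Of the 10 windows of these 6 genes, 3 held a match, all at Otx2 starts. The Otx2 window shown holds 1 GATA, 1 homeobox and 1 Sox match, which do not overlap. A match to letters is a description and not a binding site, and the windows of En1, Gata3, Sox14, Pax7 and Gata2 held none of the 5 motifs.

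Between 16380080 (MWT) and 23475080 (CxH) reads were counted on genes. Levels are given as RPM, reads scaled to 1000000 aligned reads of the library, with exact 95% Poisson intervals. A floor of 3 reads stands at 0.0779 RPM in CxH and 0.0803 in MH, and at 0.0892 in CxWT and 0.104 in MWT. Intervals and floors cover counting error only. Ids, the disrupted gene, had 135 RPM in CxH and 368 in MH, against 354 in CxWT and 155 in MWT. The libraries labelled MH and MWT thus went against their genotype labels, with more Ids reads in the one labelled Ids-ko. Area markers went against the labels as well. The 12 cortex markers summed to 773 and 752 RPM in the libraries labelled CxH and MH, and to 197 and 189 in those labelled CxWT and MWT. The 8 thalamus markers summed to 72.3 and 95.4 RPM in CxH and MH, and to 614 and 543 in CxWT and MWT. None of these area markers was at 0 in any library. By area markers CxH was like MH and CxWT like MWT, whereas by Ids CxH was like MWT and CxWT like MH. The genotype labels thus set apart the same libraries as the area markers, while the Ids reads divided the libraries crosswise to both. The libraries are named below by their labels, and every direction is a direction between labelled libraries. In pooled tissue, fewer cells of a type and less RNA per cell cannot be told apart.

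The summed level of the midbrain factors was split as the area markers were, and not as Ids was. The 7 genes summed to 6.78 RPM in CxH and 6.88 in MH, against 38.6 in CxWT and 29.3 in MWT. Of the 7, 4 had 3 reads or fewer in CxH and 3 did in MH, and none did in CxWT or MWT. Genes with so few reads were rare in the table, at 0.488% to 0.543% of all genes in a library. The authors kept only genes above a coverage threshold, which tends to remove genes with few reads in every library. These percentages are thus partly set by that filter, and are no background for the factors at or under the floor.

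En1 had 273 reads in CxWT, or 8.12 RPM (interval 7.19 to 9.14), and 126 in MWT, or 4.35 RPM (3.63 to 5.18). It had 1 read in CxH, or 0.026 RPM (0.000658 to 0.145), and 0 in MH, under the 3-read floor of 0.0803 RPM (exact interval up to 0.0987). En1 was thus close to absent from both libraries labelled Ids-ko, although one is labelled as midbrain, and present in both labelled wt, although one is labelled as cortex. En2, its paralog, had 3.78 RPM in CxWT (3.15 to 4.49) and 3.63 in MWT (2.97 to 4.39), against 0.727 in CxH (0.483 to 1.05) and 0.268 in MH (0.128 to 0.492). It was low but above the floor in CxH and MH, and nearly level between CxWT and MWT.

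Pax7, the gene of the dorsal midbrain, had 125 reads in CxWT, or 3.72 RPM (3.1 to 4.43), and 85 in MWT, or 2.94 RPM (2.35 to 3.63). In MH it had 2 reads, or 0.0535 RPM (0.00648 to 0.193), and the 0 reads in CxH lie under the 3-read floor of 0.0779 RPM (exact interval up to 0.0958). Sox14 had 83 reads in CxWT, or 2.47 RPM (1.97 to 3.06), and 47 in MWT, or 1.62 RPM (1.19 to 2.16), with 3 in CxH, or 0.0779 RPM (0.0161 to 0.228), and 0 in MH. Pax7 and Sox14 were therefore at or under the floor in both libraries labelled Ids-ko and above 1 RPM in both labelled wt.

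The GATA factors parted from each other. Gata3 had 189 reads in CxWT, or 5.62 RPM (4.85 to 6.48), and 128 in MWT, or 4.42 RPM (3.69 to 5.26). It had 1 read in CxH, or 0.026 RPM (0.000658 to 0.145), and 4 in MH, or 0.107 RPM (0.0292 to 0.274). Gata2 had 168 reads in CxWT, or 5.0 RPM (4.27 to 5.81), and 96 in MWT, or 3.32 RPM (2.69 to 4.05), with 131 in CxH and 127 in MH, each 3.4 RPM (2.84 to 4.04 and 2.83 to 4.04). Gata2 was the only one of the 7 with a level in CxH and MH as high as in MWT. Otx2 stood between these patterns, with 9.85 RPM in CxWT (8.81 to 11) and 9.05 in MWT (7.99 to 10.2), and 2.52 in CxH (2.04 to 3.07) and 3.05 in MH (2.52 to 3.67). It was lower in both libraries labelled Ids-ko, but stayed far above the floor in each.

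**Figure D1:**
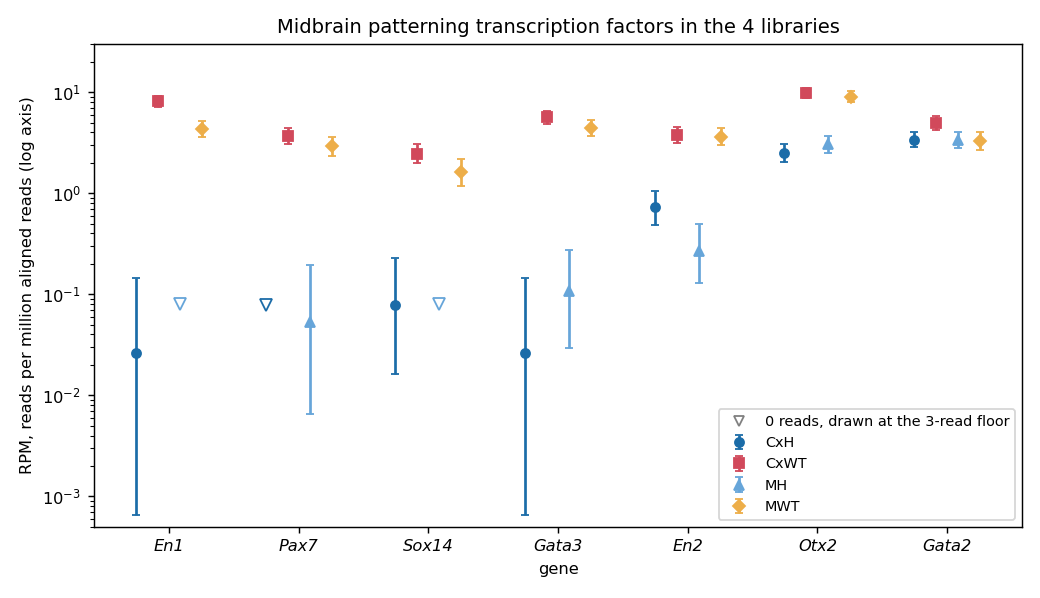
RPM of the 7 measured genes on a log axis, 1 symbol per library, with exact 95% Poisson intervals; open triangles mark 0 reads, drawn at the 3-read floor. En1, Pax7, Sox14 and Gata3 sit at or below 0.107 RPM in CxH and MH and between 1.62 and 8.12 RPM in CxWT and MWT, while the 4 symbols of Gata2 lie between 3.32 and 5.0 RPM.

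Genes were compared with each other per kilobase of transcript. In CxWT the order was Otx2 at 4.31 RPM per kb, En1 at 2.07, Sox14 at 1.89, Gata3 at 1.75, Gata2 at 1.54, En2 at 0.758 and Pax7 at 0.635. In this order Otx2 lay above En1, and Gata2 above En2, beyond their counting intervals, and all other neighbours had overlapping intervals. In MWT it was Otx2 at 3.96 RPM per kb, Gata3 at 1.38, Sox14 at 1.25, En1 at 1.11, Gata2 at 1.02, En2 at 0.728 and Pax7 at 0.501, where only Otx2 stood clear of its neighbour. In CxH and MH, Otx2 (1.1 and 1.34 RPM per kb) and Gata2 (1.05 in both) led, with overlapping intervals, and En2 followed at 0.146 and 0.0537 RPM per kb, below the interval of Gata2. Otx2 had the highest level per length of the 7 in every library.

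As a share of its RPM summed over the 4 libraries, En1 had 99.8% in CxWT and MWT, Pax7 99.2%, Gata3 98.7% and Sox14 98.1%. En2 had 88.2%, Otx2 77.2% and Gata2 55.0%. The median of the 12530 genes with at least 100 reads in all was 51.3%. Ranked by this share among those genes, En1 came first, Pax7 had 5 genes at or above it (itself counted), Gata3 8, Sox14 11, En2 56, Otx2 175 and Gata2 4025. En1, Pax7, Gata3 and Sox14 reached 100 reads only through CxWT and MWT. Their ranks are thus partly set by the filters on reads and coverage, and are descriptions. En1 was the most uneven, since 65.0% of its level was in CxWT and 34.8% in MWT, and Gata2 the most even, with 21.9% to 33.1% in each library.

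**Figure D2:**
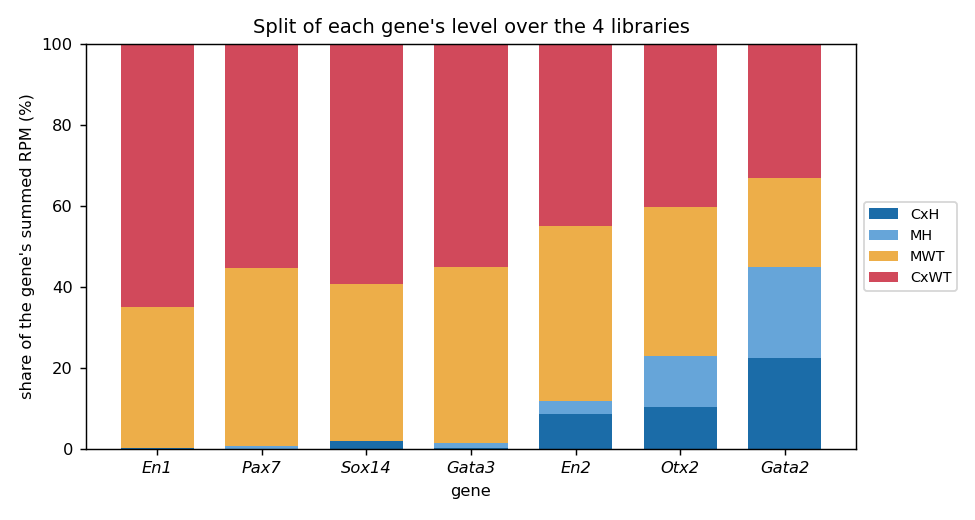
Stacked bars giving, for each of the 7 genes, the percentage of its summed RPM found in CxH, MH, MWT and CxWT. The blue parts (CxH and MH) are nearly invisible for En1, Pax7, Sox14 and Gata3, are 8.7% and 3.2% for En2 and 10.3% and 12.5% for Otx2, and 22.5% each for Gata2.

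The study compared the libraries labelled Ids-ko and wt in each area to ask about the Ids deletion. Ids followed the genotype label in Cx, with a log2 ratio of -1.39 in CxH vs. CxWT, and went against it in M, with 1.24 in MH vs. MWT. By the area markers neither comparison held the area fixed. A call needed both a p-value under 0.05 in a Poisson likelihood ratio test and a log2 ratio of 0.7 or more in either direction, which is the study's own rule and sets libraries, not conditions, against each other. In CxH vs. CxWT, 6 of the 7 were called lower and 0 higher, where 11.5% of all genes were called lower and 9.46% higher. The balance over all genes turned with the scaling, from 1457 lower and 1201 higher by aligned reads to 1135 and 1447 with TMM factors and 1150 and 1429 with DESeq2 size factors. The median log2 ratio of the 7 was -4.99, against -0.09 over all genes. En1 was 313-fold higher in CxWT than in CxH (95% counting interval 55.6 to 12400), Gata3 216-fold (38.4 to 8590) and Sox14 31.7-fold (10.5 to 157). Pax7, with 0 reads in CxH, was at least 47.7-fold higher in CxWT by the 3-read floor, and its counting interval ended at a log2 ratio of -5.26. En2 was 5.19-fold higher (3.43 to 8.13) and Otx2 3.91-fold (3.11 to 4.95). Gata2 was 1.47-fold higher (1.16 to 1.86), a log2 ratio of -0.55 that did not reach the threshold; after a correction for GC content and length it was -0.72 and was called lower.

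In MH vs. MWT, again 6 of the 7 were called lower and 0 higher, where 12.7% of all genes were called lower and 12.3% higher. The 1614 lower and 1556 higher genes became 1896 and 1377 with column totals, and 1386 and 1774 with TMM factors. The median log2 ratio was -5.37, or -4.34 with the genes at 0 reads set to their bound, against -0.06 over all genes. By the 3-read floor, En1 was at least 54.2-fold and Sox14 at least 20.2-fold higher in MWT than in MH. Their counting intervals ended at log2 ratios of -5.44 and -3.98. Pax7 was 54.9-fold higher (14.7 to 460), Gata3 41.3-fold (15.7 to 154), En2 13.6-fold (7.09 to 29.1) and Otx2 2.97-fold (2.37 to 3.73). Gata2 had a log2 ratio of 0.04 (-0.36 to 0.43). The 6 genes called lower in CxH were the 6 called lower in MH, and these comparisons share no library, although both areas came from the same mice.

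**Figure D3:**
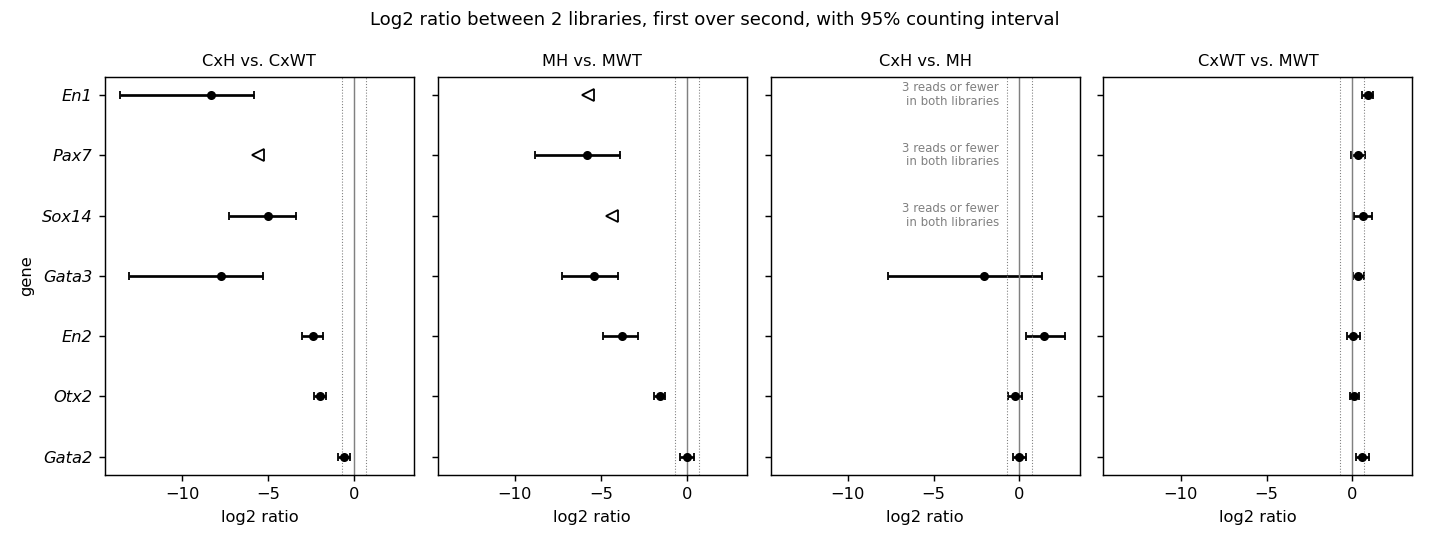
Log2 ratios of the 7 genes between 2 libraries, first over second, with 95% counting intervals; dotted lines mark 0.7 in either direction, open triangles mark the bound where 1 library had 0 reads, and grey words stand where both had 3 reads or fewer. In the 2 left panels all genes but Gata2 lie left of the dotted lines, and in the right panel all 7 lie within 0.06 to 0.90.

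The comparison of areas within a genotype label asks which genes separate Cx from M. In CxH vs. MH, 2 of the 7 were called higher and 0 lower, where 2.43% of all genes were called higher and 1.06% lower (309 and 135 genes, or 257 and 183 with column totals and 172 and 129 after the GC and length correction). The pair was En2, 2.72-fold higher in CxH (log2 ratio 1.44, interval 0.36 to 2.65), and Sox14, with 3 reads in CxH and 0 in MH, too few for a ratio and no longer called with adjusted p-values. The log2 ratio of Otx2 was -0.28 (-0.68 to 0.13) and that of Gata2 0.0 (-0.36 to 0.37), and Gata3, with 1 read against 4, had -2.04 (-7.67 to 1.29). En1 and Pax7 had 2 reads or fewer in both libraries. In CxWT vs. MWT, 1 of the 7 was called higher and 0 lower, where 5.43% of all genes were called higher and 2.11% lower (690 and 268 genes, or 480 and 390 with column totals and 169 and 204 after the GC and length correction). That gene was En1, 1.87-fold higher in the library labelled cortex (log2 ratio 0.90, interval 0.59 to 1.22), or 0.67 and not called after the GC and length correction. Gata2 was at 0.59 (0.22 to 0.97), short of the threshold. All 7 log2 ratios were above 0 in CxWT vs. MWT, from 0.06 (En2) to 0.60 (Sox14) and 0.90, with a median of 0.35 against 0.04 over all genes; with that correction 5 of the 7 were above 0, and with column totals 6. None of these midbrain genes was called lower in the library labelled cortex.

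Between libraries that differ in both labels, 6 of the 7 were lower in CxH than in MWT (15.1% of all genes lower, 15.6% higher) and 6 were lower in MH than in CxWT (8.89% lower, 6.41% higher). Over all genes, the 1915 lower and 1980 higher in CxH vs. MWT became 2504 and 1609 with column totals. The 1129 lower and 814 higher in MH vs. CxWT became 855 and 1013 with TMM factors, 852 and 1016 with DESeq2 size factors and 853 and 924 after the GC and length correction. En1 was 168-fold higher in MWT than in CxH (29.5 to 6670) and at least 101-fold higher in CxWT than in MH. Gata3 was 170-fold and 52.5-fold higher in these pairs. Gata2 had log2 ratios of 0.04 and -0.56 and was called in neither. These pairs use the same libraries as the comparisons above and are no separate evidence.

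With both areas in 1 edgeR quasi-likelihood fit, the libraries labelled Ids-ko (CxH, MH) were compared with those labelled wt (CxWT, MWT), with the area label as a term and 1 residual degree of freedom. With the area label in the fit, p-values here measure how far the genotype label difference varied between the 2 area labels. They do not measure the spread between animals, since by the study both libraries of a genotype came from the same mice. Of 12692 genes tested, 9.9% were called lower and 8.76% higher at a Benjamini-Hochberg adjusted p-value under 0.05. These 1257 lower and 1112 higher genes became 868 and 1232 with DESeq2. With 1 library left out and no area term, edgeR called 343 lower and 422 higher without CxH, 564 and 628 without MH and 1965 and 1874 without CxWT, and called the same number of the factors, 6, in each. Of the 7, 6 were called lower, with a median of -5.62 on the log2 scale against -0.08 over all genes. En1 was at -8.56 ± 0.58 (log2 difference ± SE; edgeR adjusted p = 2.39e-04), in both libraries. Pax7 followed at -6.79 ± 0.70, Gata3 at -6.17 ± 0.54, Sox14 at -5.62 ± 0.71, En2 at -2.95 ± 0.43 and Otx2 at -1.77 ± 0.25, with edgeR adjusted p-values from 5.12e-04 (Gata3) to 0.0037 (En2). These fitted differences of genes near 0 depend on the prior count of the fit and are no bounds, and their order turned with the libraries used. Without CxH, En1 was at -10.7, Sox14 at -9.1, Pax7 at -5.86, Gata3 at -5.5 and En2 at -3.77, and without MH, Pax7 was at -9.81, En1 at -7.72, Gata3 at -7.41, Sox14 at -4.66 and En2 at -2.34. Gata2 was at -0.27 ± 0.28 (edgeR adjusted p = 0.552), and Ids at -0.07 ± 0.54 (adjusted p = 0.942). For the area label, edgeR called 0.0% of all genes lower and 0.0% higher, with 615 genes at an unadjusted p-value under 0.05, and DESeq2 called 1 gene. None of the 7 passed for area, with edgeR adjusted p-values from 0.817 (En1, 0.94 ± 0.41) to 0.956, and 0 of the 7 had an unadjusted p-value under 0.05.

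Other genes of midbrain development and function were read from lists, described by counts and medians in the Ids-ko-labelled over the wt-labelled library of each area. Of 11 genes of the dopamine lineage, 6 were in the table, and 5 were called lower and 1 higher in each area, with medians of -2.97 in Cx and -2.77 in M. Slc6a3, the dopamine transporter, had 56.4 RPM in CxWT and 49.7 in MWT, and 0.416 in CxH and 0.509 in MH. Th, tyrosine hydroxylase, had 39.8 and 32.5 RPM in CxWT and MWT, and 5.53 and 4.76 in CxH and MH. Aldh1a1, a retinaldehyde dehydrogenase of ventral dopamine neurons, had 106 and 159 RPM in CxWT and MWT, and 32.6 and 30.3 in CxH and MH. Slc18a2, the vesicular monoamine transporter, and Ddc, which decarboxylates the dopamine precursor, were the other two called lower. Nr4a2, a nuclear receptor required by dopamine neurons but also expressed in cortex, went the other way, with 11.3 and 7.12 RPM in CxWT and MWT, and 24.6 and 31.0 in CxH and MH. The effector genes of dopamine neurons were thus split between libraries in the direction of En1, Aldh1a1 and Th by less, and Nr4a2 in the opposite one.

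Of 9 genes of the midbrain GABA lineage 7 were in the table, with 4 called lower and 1 higher in Cx and 3 lower and 2 higher in M (1 higher after the GC and length correction). Tal1, a partner of the GATA factors in fate choice, had 9.82 RPM in CxWT and 9.88 in MWT, and 2.47 in CxH and 1.61 in MH. The LIM homeobox factors Lhx1 (log2 ratios -4.96 and -4.18) and Lhx5 (-5.46 and -4.41) were called lower in both areas, and Six3, a homeobox factor, in Cx at -1.07. Zfpm1, a cofactor that binds GATA proteins, was called higher at 1.20 and 2.16, and Zfpm2 was not called at -0.40 and -0.19. Among the genes that act with the GATA factors, Tal1 was thus split between libraries in the direction of Gata3, and Zfpm1 in the opposite one.

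Of 11 genes of the isthmic organizer 5 were in the table, with medians of -0.04 in Cx and -0.15 in M. Gbx2, the hindbrain counterpart of Otx2 that is also a thalamic gene, was called lower in both areas, at 6.96 RPM in CxWT and 5.25 in MWT, and 0.416 in CxH and 0.401 in MH. Spry2, an inhibitor of Fgf signaling, was called higher in Cx at 0.97 and not in M at 0.61. Spry1, Otx1 and Fgf18 were not called in either area, and Otx1, the paralog of Otx2 that is used in cortex, had 2.14 and 2.0 RPM in CxWT and MWT, and 2.88 and 3.08 in CxH and MH. The organizer signals Fgf8 and Wnt1 and the factors Pax2 and Pax5 had no row in the table.

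Of 10 genes of the ventral midline 8 were in the table, with 6 called lower and 1 higher in Cx, at a median of -1.13, and 3 lower and 1 higher in M, at -0.63. After the GC and length correction the counts in M were 6 lower and 0 higher. Shh, the signal of the floor plate that acts with the Foxa factors, had 4.91 RPM in CxWT and 3.90 in MWT, and 1.64 in CxH and 1.74 in MH, and was called lower in both areas, as were Ntn1, a guidance cue, and Nkx2-9, a homeobox factor. Gli1, a target of Shh signaling, and the homeobox factors Nkx2-2 and Nkx6-2 were called lower in Cx, and in M had log2 ratios of -0.60, -0.04 and -0.23. Spon1 was not called in either area, at -0.63 and -0.66. The ratios of this list were smaller than those of En1, Gata3, Pax7 and Sox14, none reaching -2 in either area.

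Of 14 genes of the tectum and midbrain nuclei 6 were in the table, with 5 called lower in each area and medians of -2.62 and -2.28. The Iroquois homeobox factors led, with Irx2 at -6.17 in Cx and -4.49 in M, Irx1 at -3.88 and -3.16, and Irx3 at -3.57 and -4.29. Isl1, a LIM homeobox factor, and Meis1, a homeobox factor, were the other two called lower. Meis1 lay near the threshold, at -0.71 and -0.88. The count in Cx was 4 with TMM factors, DESeq2 size factors, the GC and length correction, the exact test or a log2 threshold of 1, and Meis1 was not called in the pooled fit (edgeR adjusted p = 0.0661). Meis2, with 113 and 105 RPM in CxH and MH and 64.6 and 74.0 in CxWT and MWT, was called higher in Cx at 0.81 and not in M at 0.50. The Meis2 call was lost with the exact test and with a log2 threshold of 1. Of 6 genes of the serotonin and noradrenaline lineage, whose neurons lie behind the isthmus, 3 were in the table and all 3 were called lower in both areas. Slc6a4, the serotonin transporter, had 647 reads in CxWT and 446 in MWT, and 3 in CxH and 2 in MH. Tph2, which makes serotonin in the brain, had log2 ratios of -5.55 and -4.72, and Dbh, which makes noradrenaline, -3.24 and -2.92. None of the 20 Hox genes listed, which pattern the hindbrain and spinal cord, had a row in the table.

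Markers of cortex and thalamus moved with the same split, and those of the other tissues did so only in part or not. The part of any of them in the values above was not tested. Of the 12 cortex markers, 10 were called higher in each area, at medians of 2.69 and 2.89, among them Mef2c, with 209 and 211 RPM in CxH and MH and 51.4 and 59.6 in CxWT and MWT, and Lamp5, with 169 and 174 against 32.8 and 32.1. Of the 8 thalamus markers, 8 were called lower in Cx and 7 in M, at medians of -3.42 and -2.74. Slc17a6, the vesicular glutamate transporter of thalamus and midbrain, had 10.5 and 21.8 RPM in CxH and MH, and 208 and 205 in CxWT and MWT. The 6 hippocampus markers of 8 in the table had medians of 0.37 and 1.15 and summed to 152 and 169 RPM in CxH and MH, and to 141 and 99.0 in CxWT and MWT. The 6 cerebellum markers of 8 had medians of -0.55 and -0.24 and summed to 63.9 and 64.3 RPM, and to 138 and 106, in the same order. Of these sums, Zic1 had 15.5 and 14.8 RPM in CxH and MH, and 61.7 and 51.2 in CxWT and MWT. The cerebellum calls were mixed, with 3 lower and 0 higher in Cx and 1 lower and 2 higher in M, and moved with the scaling. The 8 choroid plexus markers summed to 580 and 633 RPM, and to 138 and 262, mostly from Ttr, and had medians of 0.86 and 0.42. The 8 endothelium markers summed to 221 and 180 RPM, and to 166 and 202, with medians of 0.54 and -0.05. Log2 ratios also ran with GC content across genes, with Spearman correlations of 0.428 in CxH vs. CxWT, 0.464 in MH vs. MWT and 0.601 in CxWT vs. MWT; genes are not independent replicates, and these are descriptions.

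**Figure D4:**
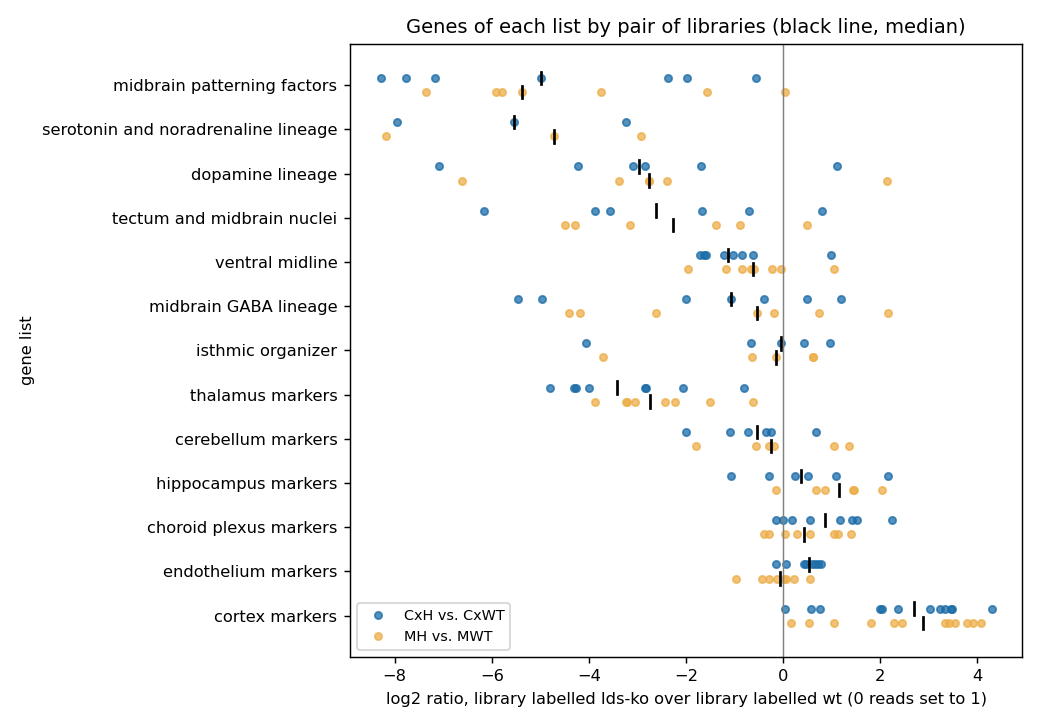
Log2 ratios of the genes of each list, 1 dot per gene, in CxH vs. CxWT (blue) and MH vs. MWT (orange), with 0 reads set to 1 and a black line at the median. The midbrain patterning factors (medians -4.99 and -5.37), the serotonin and noradrenaline lineage, the dopamine lineage and the thalamus markers lie mostly left of 0, and the cortex markers (2.69 and 2.89) lie right of 0.

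The genes most like each factor were found from the shares of RPM over the 4 libraries, by total variation distance (0.5 times the summed absolute differences of the shares), among genes with at least 100 reads in all. En1 was nearest to Lhx5 (distance 0.0278), Avp, the vasopressin precursor (0.0454), and Lhx1 (0.0479). Gata3 and Pax7 were nearest to each other (0.00509) and then to the same pair of genes, Slc6a4 (0.00929 and 0.00745) and Irx2 (0.0134 and 0.0185). Sox14 was nearest to Hcrt, the hypocretin precursor of lateral hypothalamus (0.0158), Avp (0.0198) and Ebf3 (0.0277). En2 was nearest to Cda (0.0196) and Chrnb3, a nicotinic receptor subunit (0.0238). Otx2 was nearest to Plekhg1 (0.00621), Zfhx4 (0.00928) and Vat1l (0.0158), and Gata2 to Mast4 (0.00177), Osbpl7 (0.00265) and Fam234a (0.00447). Genes with an even split are many and those with an extreme split few, so that distances of Gata2 and of En1 cannot be compared as closeness of pattern. The likeness is over 4 libraries only.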

How the data were processed

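RNA of 4 pools was sequenced by the authors on a SOLiD 3 Plus system and aligned to NCBI37/mm9 with PASS 2.10 (best hit, up to 2 mismatches, no gap). They counted reads that fell on one gene alone and kept genes with coverage above 50% of the length. The deposited values are these raw counts per gene, without normalization; the gene annotation is not given in the sources used here. Coverage filtering means that a gene without a row may still be expressed, and dropping reads shared by genes can lower counts of paralogs.

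Here, Entrez identifiers were matched to symbols for 12690 of 12700 rows, and positions, GC content and transcript lengths came from GENCODE vM1. Counts were scaled to RPM by the aligned reads that the study gives for each library. A count of 0 was set to 1 for ratios only, and bounds use 3 reads. Every gene was tested between 2 libraries with a Poisson likelihood ratio test, and over the 4 libraries with edgeR 4.0.16 (quasi-likelihood, Benjamini-Hochberg adjusted), with standard errors derived from its F statistic. Both tests were tried on simulated counts, drawn with counting error alone for 2 libraries and with an assumed spread for the pooled fit. Such counts do not show how the tests behave under the spread between animals, which these data do not give. Alternatives were column totals, TMM factors, DESeq2 1.42.0, a filter at 100 reads, a log2 threshold of 1, Benjamini-Hochberg adjustment, 0.5 added to counts, an exact test that assumes a coefficient of variation of 0.2, a GC and length correction, no area term and leaving out each library. R 4.3.3 and Python 3.11.15 were used, with scipy 1.17.1, numpy 2.4.6, matplotlib 3.10.9 and pandas 2.3.3.

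Genes named are the 9 factors, Ids, genes of the lists (the up to 4 with most reads as examples, and in the midbrain lists all those called, chosen after their values were seen) and the 3 nearest genes of each factor. Members and lists were chosen with earlier results of these data known. A few genes that this rule names entered the counts and medians but are not reported here.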

Additional observations from a re-analysis of the deposited data

Results flagged for a closer look

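Leaving out comparisons in which both libraries had 3 reads or fewer, log2 ratios of opposite sign under the same label were seen for 3 of the factors and for Ids, and none could be tested, since each condition has 1 library. Gata2 had a log2 ratio of -0.55 in CxH vs. CxWT and of 0.04 in MH vs. MWT, both short of the threshold. With column totals these were -0.57 and -0.03, and after the GC and length correction -0.72 and -0.31, so the opposite sign was lost. Gata3 had 0.35 in CxWT vs. MWT, and -2.04 on 1 and 4 reads in CxH vs. MH. Otx2 had 0.12 and -0.28 between the same pairs. Ids, the disrupted gene, had -1.39 in CxH vs. CxWT and 1.24 in MH vs. MWT, and correspondingly 1.19 in CxWT vs. MWT and -1.44 in CxH vs. MH. The differences between these values were not tested.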

How the results depend on the processing

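The 6 factors called lower in each pair of an Ids-ko-labelled with a wt-labelled library kept direction and call in every alternative in which they were tested, as did the 6 pooled calls; a filter at 100 reads removed Sox14 from all 4 pairs and Pax7 from both with MWT, leaving 5 or 4 called. Of the single ratios of the factors, 360 kept their side of the threshold, 5 lost a call (Sox14 in CxH vs. MH, En1 in CxWT vs. MWT) and 1 gained it (Gata2). Counts over all genes (lower, then higher) moved with a log2 threshold of 1, to 773 and 869 in MH vs. MWT, 710 and 691 in CxH vs. CxWT, 101 and 194 in CxWT vs. MWT, 34 and 109 in CxH vs. MH, 567 and 497 in MH vs. CxWT, and 854 and 1107 in CxH vs. MWT, and no factor was then called in CxWT vs. MWT (0). After the GC and length correction the genes called higher were 169 in CxWT vs. MWT and 172 in CxH vs. MH, those lower and higher in CxH vs. MWT were 974 and 1053, the factors called higher were 0 in CxWT vs. MWT, where En1 had 0.67, and 1 (En2) in CxH vs. MH, and Gata2 was called lower in CxH vs. CxWT at -0.72, making 7. With at least 100 reads, 89 genes were lower and 0 factors higher in CxH vs. MH. Adjusted p-values left 1 factor higher there. The exact test gave 128 genes lower and 359 higher in CxWT vs. MWT, 40 and 151 with 1 factor higher in CxH vs. MH, and 1274 lower in CxH vs. MWT. DESeq2 called 1 gene higher for area. Leaving out a library, with no area term, gave 343 to 1965 genes lower and 422 to 1874 higher for the genotype label; the counts lower and higher were 343 and 422 without CxH, 564 and 628 without MH, and 1965 and 1874 without CxWT, while 6 factors stayed called lower; the lone library is assumed to vary like the others. Column totals moved the median of all genes by -0.11 in CxH vs. MWT, and TMM and DESeq2 factors by 0.11 in MH vs. CxWT. The cause of these moves was not tested. No paired analysis was possible because each condition has 1 library and the labels carry no replicate numbers. In the area comparison the genotype term pairs libraries by label only. Given the Ids levels and area markers above, whether it pairs areas of the same mice was not tested. With 1 library per condition and 3 reads or fewer for 4 factors in CxH, depth limits how low En1, Pax7, Sox14 and Gata3 lie there, and differences of En1, Pax7 and Gata3 between CxH and MH were not detectable at this depth.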
